A study of Homo sapiens with 9 samples.

Results

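The 39 genes described here were chosen by symbol as the glycolytic pathway and its hypoxia-inducible neighbours: 3 glucose transporters, 9 enzymes of upper glycolysis, 2 enzymes that set the level of fructose 2,6-bisphosphate, 6 enzymes of lower glycolysis, 5 genes of lactate and pyruvate fate, the 2 HIF alpha subunits and 12 targets of hypoxia-inducible factor (HIF) outside glycolysis. The choice was made with earlier results of these data known. All 39 were found among the 60671 genes counted, and 37 had enough reads to be tested. They were measured by polyadenylated RNA sequencing in N/TERT cells, a telomerase-immortalised line of human epidermal keratinocytes, without treatment. Control libraries came from wild-type N/TERT cells, KO libraries from N/TERT cells with a CRISPR knockout of SGPL1, and OE libraries from N/TERT cells made to overexpress SGPL1, with 3 biological replicates in each group. SGPL1 encodes sphingosine-1-phosphate lyase, which degrades the signalling lipid sphingosine-1-phosphate. The promoter of the overexpressed gene, the guide and the number of edited clones are not given in the sources used here, so a group may stand for few clones, and p-values measure the spread between these libraries.

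Glycolysis splits glucose into pyruvate. Its upper steps (hexokinase to triosephosphate isomerase) consume ATP, its lower steps (GAPDH to pyruvate kinase) make ATP, and lactate dehydrogenase and the proton-coupled lactate carriers dispose of the pyruvate as lactate. HIF is a dimer of an oxygen-labile alpha subunit, HIF1A or EPAS1, with ARNT. When oxygen is low the alpha subunit escapes hydroxylation and degradation, and the dimer binds a short core element near many glycolytic genes and near genes of pH control, mitophagy and blood vessel growth. The alpha subunits are controlled mainly at the level of protein, which these data do not hold. Epidermis has no vessels of its own, and keratinocytes rely on glycolysis under ordinary conditions.

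Gene counts summed to between 6317564 and 13330479 per library, and 3 counts in a library equalled 0.219 to 0.507 counts per 1e6 counts (CPM, scaled by TMM, a factor that evens out composition). The 39 genes took 1.54 to 1.58% of the counts in control libraries, 1.66 to 1.83% in KO libraries and 1.63 to 1.80% in OE libraries. SGPL1, counted over all its exons, was at 92.5 CPM in control, 59.6 in KO and 1055 in OE cells, 1.55-fold lower in KO than in control (adjusted p = 5.14e-06). A CRISPR edit need not lower the message, so this checks the OE label only. All 8 keratinocyte markers were detected, and their summed level was 22290 to 22710 CPM in control, 12770 to 13820 in KO and 24370 to 25650 in OE libraries. The 8 fibroblast markers summed to 21.5 to 28.3, 8.46 to 15.1 and 24.5 to 28.6 CPM in the same order, the 6 melanocyte markers to 89.8 to 101.2, 69.2 to 76.5 and 60.0 to 71.3 CPM, with 3 of the 6 (TYR, DCT and SOX10) at 0 in every group, and the 8 blood and endothelial markers to at most 1.42 CPM. Over all libraries MITF had 6264 counts, PMEL 129 and MLANA 47, so the melanocyte sum is mostly MITF. The fibroblast sum is mostly COL1A1, with 1813 counts, where PDGFRB had 36. These 2 sums are therefore no measure of those cell types. The keratinocyte sum is mostly KRT5 and KRT14, with 794125 and 455492 counts, where LAMB3, the next, had 138719. It therefore need not follow the other markers. The lower keratinocyte marker sum of KO libraries stands beside every KO result below, and its part in them was not tested. In bulk RNA, fewer cells of a type and less RNA per cell cannot be told apart.

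Across all 13390 tested genes the KO log2 fold change was lower for longer genes (Spearman rho = -0.37 across genes, which are not independent replicates), from a median of 0.52 in the decile of shortest genes to -0.45 in that of the longest. Enzymes of upper glycolysis have a median exon length of 5918 bases against 4748.5 in lower glycolysis. Log2 fold changes of KO against control are therefore given also with the trend over exon length and GC content removed within each library, called the corrected value. For KO against OE the corrected value is given where it changed the call of a member. After that correction rho was -0.05. In OE against control the uncorrected rho was already -0.04.

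Promoters were read from RefSeq on GRCh38.p14 as the 250 bases before each annotated start, for the 34 members with an entry. BNIP3L, NDRG1, SLC16A1, SLC2A3 and VEGFA had none. The core of the HIF element was searched on both strands as ACGTG or GCGTG. It was found in 38 of 62 member promoters (61.3%), which belong to 29 of the 34 members, against 43.2% of all 35116 promoters in the table. A gene with several starts has more chances of a match, and the share of all genes with a match was not counted. Promoters were not matched for GC content. The longer form TACGTG was found in 8 member promoters (12.9%, 8 members) against 2.76% of all. EGLN3, LDHB, PGAM1, PKM and SLC2A1 had no match in this window. CACGTG reads as ACGTG on each strand and so counts as overlapping matches. A match is a string of letters, and binding was not measured. The 6 promoters printed here belong to genes that moved in different ways: PGK1, GAPDH, CA9 and PDK1 rose in KO cells, LDHA rose in OE cells and not in KO cells, and BHLHE40 fell in KO cells. LDHA and PDK1 have 2 annotated starts each, and the one with more matches is printed. The GAPDH, PGK1 and PDK1 windows printed here lie inside the gene bounds used for counting, which begin at 6534512, 77910739 and 172555373. None of these windows precedes the outermost start of its gene. Each runs 5′ to 3′ on the gene's strand, and the capitals mark the core on either strand (CACGT and CACGC are its reverse complement).
PGK1, chrX:78103998-78104247, plus strand: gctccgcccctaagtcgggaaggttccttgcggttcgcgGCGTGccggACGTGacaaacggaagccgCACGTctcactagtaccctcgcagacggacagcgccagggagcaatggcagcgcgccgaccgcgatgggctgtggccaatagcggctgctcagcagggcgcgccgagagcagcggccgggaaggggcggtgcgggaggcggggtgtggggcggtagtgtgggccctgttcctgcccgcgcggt
GAPDH, chr12:6535014-6535263, plus strand: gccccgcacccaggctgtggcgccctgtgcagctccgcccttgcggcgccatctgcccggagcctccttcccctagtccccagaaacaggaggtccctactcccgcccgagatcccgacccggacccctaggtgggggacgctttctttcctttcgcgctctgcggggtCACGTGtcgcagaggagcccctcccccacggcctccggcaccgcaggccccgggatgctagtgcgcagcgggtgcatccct
CA9, chr9:35673678-35673927, plus strand: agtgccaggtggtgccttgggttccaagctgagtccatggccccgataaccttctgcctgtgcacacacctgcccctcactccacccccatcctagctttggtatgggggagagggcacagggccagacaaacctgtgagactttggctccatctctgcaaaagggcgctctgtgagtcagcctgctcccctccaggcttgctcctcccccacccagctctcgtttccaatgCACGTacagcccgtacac
PDK1, chr2:172555840-172556089, plus strand: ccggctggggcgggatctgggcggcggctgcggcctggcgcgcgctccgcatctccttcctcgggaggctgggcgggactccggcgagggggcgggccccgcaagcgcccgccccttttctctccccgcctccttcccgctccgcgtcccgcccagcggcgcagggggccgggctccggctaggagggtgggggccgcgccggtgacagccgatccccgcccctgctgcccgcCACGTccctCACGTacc
LDHA, chr11:18394313-18394562, plus strand: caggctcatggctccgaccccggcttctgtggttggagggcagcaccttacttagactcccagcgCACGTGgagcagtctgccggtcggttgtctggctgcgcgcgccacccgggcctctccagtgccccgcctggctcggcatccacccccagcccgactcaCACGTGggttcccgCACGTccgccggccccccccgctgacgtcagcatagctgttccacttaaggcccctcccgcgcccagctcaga
BHLHE40, chr3:4979187-4979436, plus strand: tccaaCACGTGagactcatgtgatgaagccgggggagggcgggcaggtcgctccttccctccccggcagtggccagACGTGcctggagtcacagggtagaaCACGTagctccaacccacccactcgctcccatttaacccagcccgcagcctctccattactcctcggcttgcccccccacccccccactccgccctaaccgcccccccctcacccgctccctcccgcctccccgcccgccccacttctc
The LDHA window holds 5 matches and that of BHLHE40 holds 4, PGK1 has 3, GAPDH and PDK1 have 2 each, and CA9 has 1. Each CACGTG counts as 2 of these matches, so by separate places LDHA, BHLHE40 and PGK1 have 3 each.

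In KO against control cells 16 of the 37 tested members rose, 10 fell and 11 did not pass (edgeR's quasi-likelihood test, adjusted p under 0.05 over all tested genes). That is 70.3% of the members, where 51.9% of all tested genes passed (26.0% higher and 25.9% lower). Their median log2 fold change was 0.16, beside -0.0047 for all tested genes. Tested members had a median level of 94.5 CPM and a median GC content of 55.6%, beside 25.4 CPM and 49.0% for all tested genes. The part of this higher level in the shares that passed or did not overlap, here and below, was not tested. In upper glycolysis 6 of 9 enzymes fell and 2 rose, in lower glycolysis 3 of 6 rose and 0 fell, of the lactate and pyruvate genes 4 of 5 rose and 0 fell, and of the 10 tested HIF targets 6 rose and 1 fell. With the trend removed, 22 members rose, 8 fell and 7 did not pass, and 46.0% of all genes passed (24.0% higher). In upper glycolysis 3 of 9 enzymes were then lower (HK1, HK2 and PFKM) and 3 higher (GPI, PFKL and TPI1), lower glycolysis had 5 of 6 higher, lactate and pyruvate genes 4 of 5 and HIF targets 7 of 10. The roles were not tested against each other. Libraries of the 2 groups did not overlap for 30 of the 37 members (19 with all KO libraries above, 11 below), beside 59.5% of all genes.

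Fewer members passed in OE cells. In OE against control 9 members rose, 4 fell and 24 did not pass, so 35.1% passed where 18.6% of all tested genes did (9.28% higher, 9.34% lower). The median log2 fold change was 0.14, beside -0.0066 for all genes. With the trend removed the counts were 11 higher and 5 lower, beside 21.2% of all genes (10.3% higher, 10.9% lower). Libraries of OE and control did not overlap for 21 members, beside 34.8% of all genes. The count of 4 lower members fell to 1 without control replicate 2 and to 2 without control replicate 3. In a direct comparison of KO with OE cells 14 members were higher in KO, 13 were lower and 10 did not pass, beside 57.6% of all genes that passed (28.6% higher). After correction 15 were higher and 9 lower, beside 53.6% of all genes (27.7% higher). Libraries of KO and OE did not overlap for 24 members, where 61.6% of all genes did not. KO and OE cells were set against the same 3 control libraries, so the members' values in the 2 comparisons are not independent. Side by side, VEGFA and NDRG1 rose in both and SLC2A6 and PFKM fell in both. HK2 and PFKP were lower in KO and higher in OE cells, and PFKFB3 and ADM were higher in KO and lower in OE cells. A further 5 members (SLC2A1, ENO1, LDHA, CA12 and ANGPTL4) passed in OE and not in KO against control, and 18 (12 higher, 6 lower) passed in KO and not in OE against control. Whether such a member differed between KO and OE cells is given by the direct comparison.

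**Figure D1:**
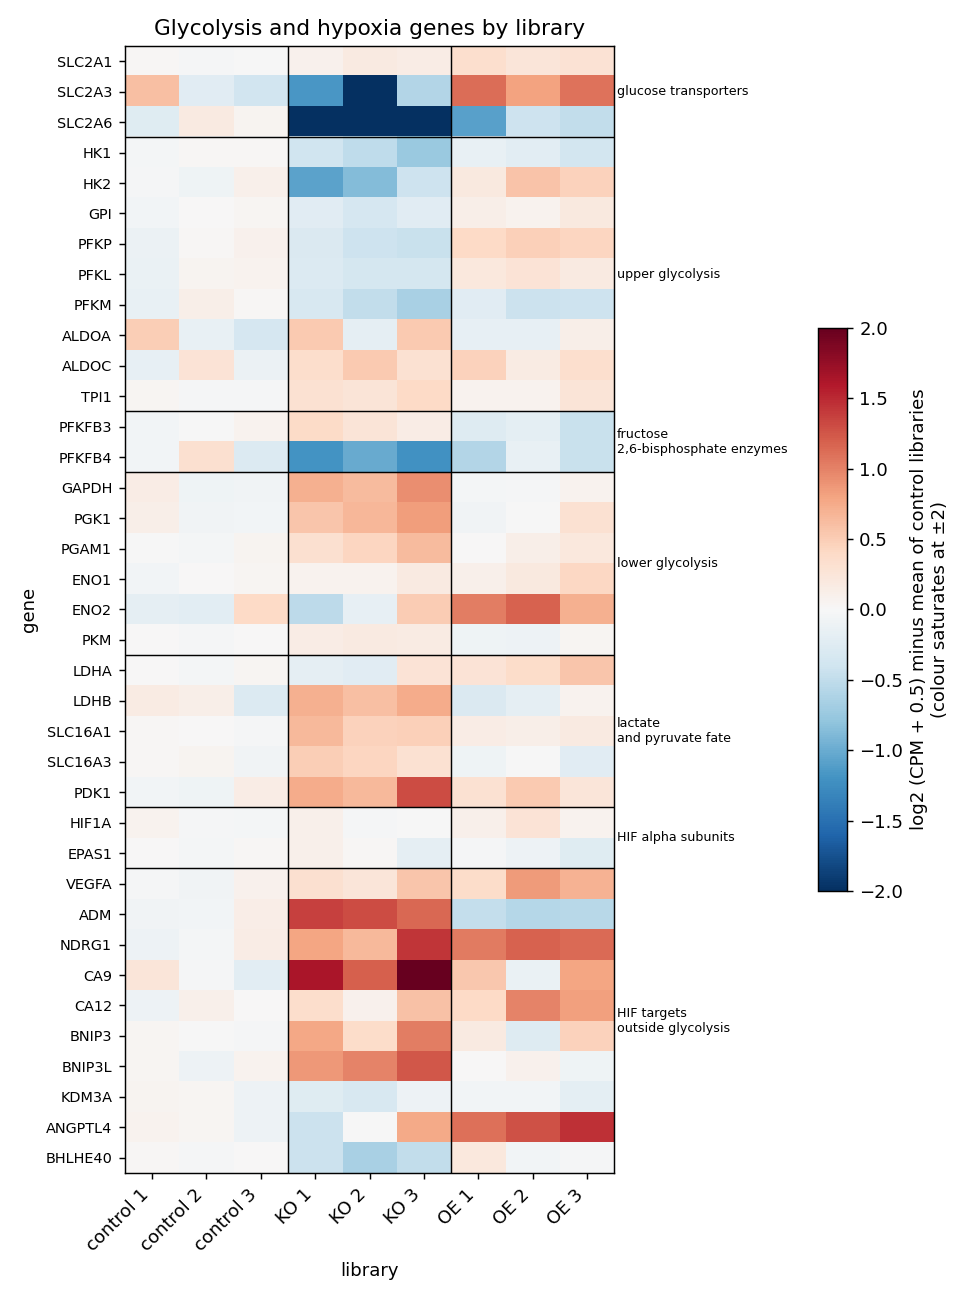
Level of the 37 tested members (rows, grouped by role) in the 9 libraries (columns) as log2 (CPM + 0.5) minus the mean of the 3 control libraries, with red for higher, blue for lower and the colour limited at 2 in either direction. Blue blocks stand in the KO columns for SLC2A3, SLC2A6, HK2 and PFKFB4, red blocks for GAPDH, PGK1, PDK1, ADM, CA9 and BNIP3L, and NDRG1 is red in both the KO and the OE columns.

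**Figure D2:**
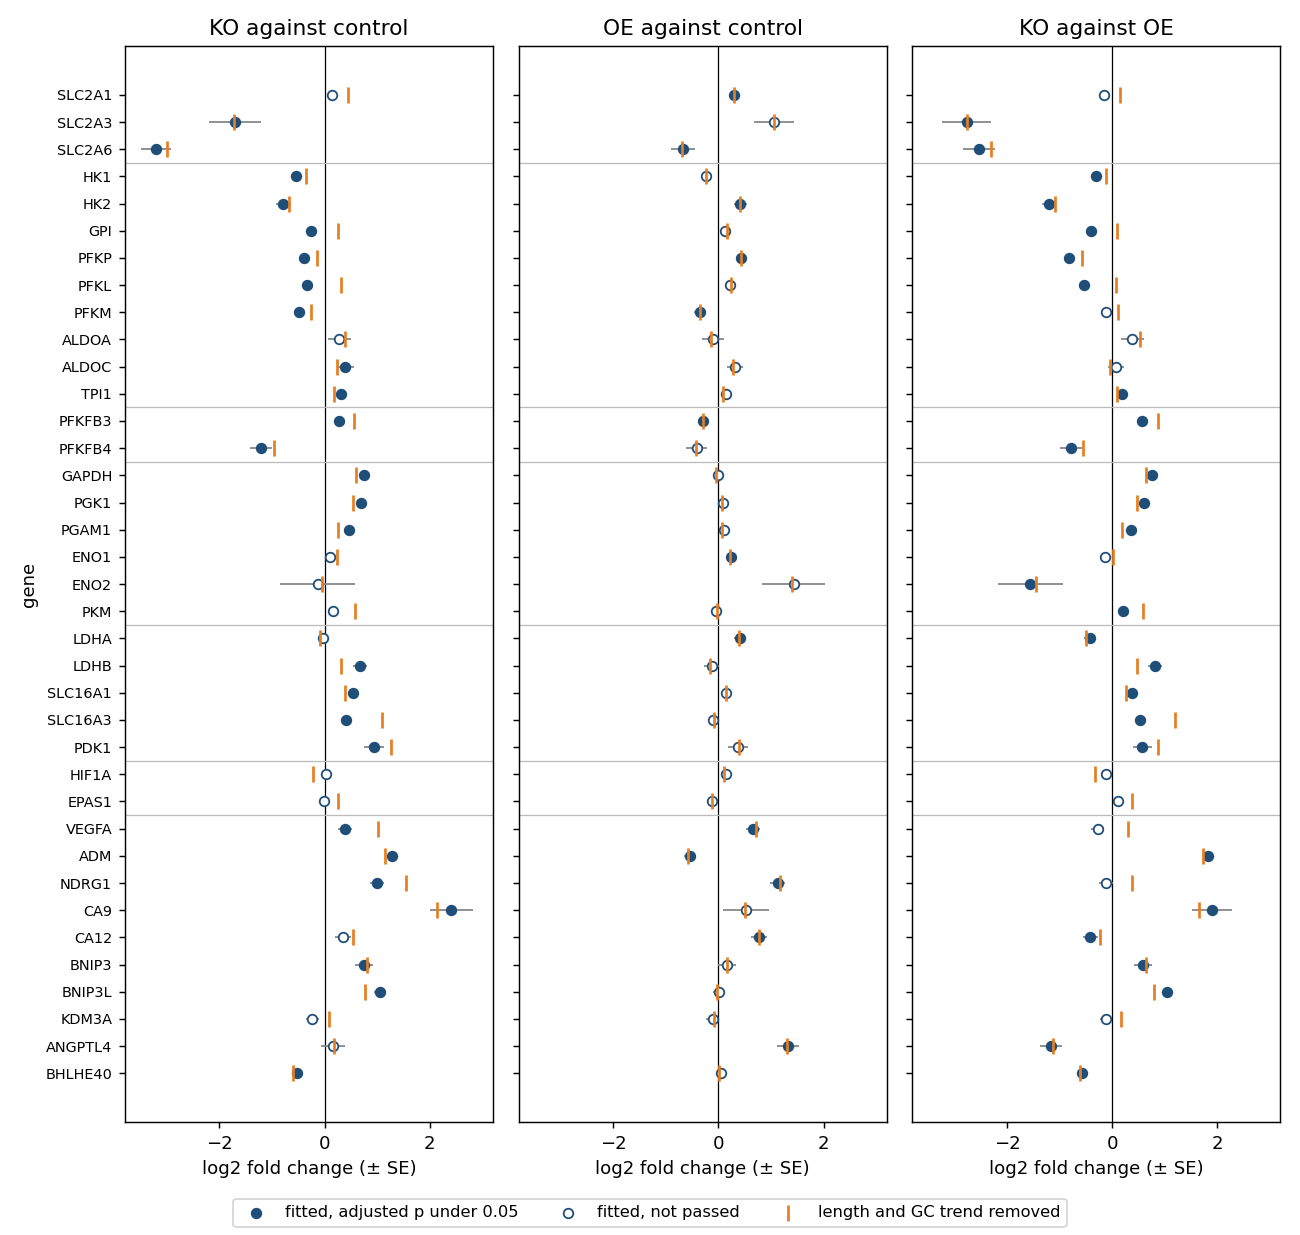
Log2 fold change of each tested member in KO against control, OE against control and KO against OE, as fitted values with SE (circles and bars, filled where the adjusted p was under 0.05), beside the value with the length and GC trend removed (orange ticks, which carry no error bar). The ticks leave the circles mostly in the 2 comparisons with KO, and for GPI and PFKL, among others, they lie on the other side of 0 there.

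Glucose enters by the SLC2A carriers, and 2 of these 3 fell several-fold in KO cells. SLC2A6 (ENSG00000160326; GRCh38 chromosome 9, 133471094 to 133479127), a carrier of intracellular membranes that is abundant in inflammatory macrophages, had 10.8, 14.6 and 13.4 CPM in control libraries, 1.21, 1.35 and 1.69 in KO libraries and 5.75, 9.47 and 8.97 in OE libraries. Every KO library lay below every other library, and each OE library lay below each control library. The KO mean was 9.15-fold lower than control (log2 fold change -3.21 ± 0.29, adjusted p = 4.93e-09; corrected -3.01), and the OE mean 1.60-fold lower (-0.67 ± 0.22, adjusted p = 0.0362). Without control replicate 2 the OE change no longer passed (adjusted p = 0.163), nor without control replicate 3 (0.105) or OE replicate 1 (0.149).

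SLC2A3 (ENSG00000059804; chromosome 12, 7919230 to 7936187), the high-affinity carrier GLUT3, was scarce, with 4.47, 2.32 and 2.02 CPM in control, 0.964, 0.224 and 1.69 in KO and 6.64, 5.24 and 6.49 in OE libraries. The groups did not overlap and stood in the order KO, control, OE, with KO replicate 2 at 2 counts. Its log2 fold change was -1.71 ± 0.49 in KO cells (corrected -1.72; adjusted p = 0.00563, or 0.0541 without control replicate 1) and 1.06 ± 0.38 in OE cells, where it did not pass (adjusted p = 0.0534; between 0.0156 and 0.0484 in 10 of the alternatives). KO against OE was -2.77 ± 0.46 (adjusted p = 1.96e-05). SLC2A1 (ENSG00000117394; chromosome 1, 42925353 to 42958893), GLUT1, the main glucose carrier of keratinocytes, was by length the most abundant of these carriers at 86.5 ± 1.08 CPM per kilobase of exon in control cells, against 3.66 ± 0.554 for SLC2A6 and 0.484 ± 0.221 for SLC2A3. It had 579, 565 and 572 CPM in control, 607, 649 and 632 in KO and 725, 677 and 695 in OE libraries. The rise in OE cells was 0.29 ± 0.07 (adjusted p = 0.00562). In KO cells the fitted value 0.14 ± 0.07 did not pass (adjusted p = 0.113) and the corrected one did (0.44, adjusted p = 8.42e-06). All 3 KO libraries lay above all control libraries.

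Hexokinase, which traps glucose as glucose 6-phosphate, fell in KO cells in both forms that are members. HK2 (ENSG00000159399; chromosome 2, 74834127 to 74893359), the inducible form, had 48.1, 46.3 and 52.9 CPM in control, 23.0, 26.6 and 36.9 in KO and 56.3, 72.9 and 67.5 in OE libraries. The KO libraries were below and the OE libraries above all controls. KO cells were 1.71-fold lower (-0.79 ± 0.14, adjusted p = 5.52e-05; corrected -0.68), and OE cells 1.33-fold higher (0.42 ± 0.13, adjusted p = 0.0261). The OE value did not pass once control replicate 1 (adjusted p = 0.0878), control replicate 2 (0.107) or OE replicate 2 (0.126) was left out. The direct KO against OE value was -1.21 ± 0.14 (adjusted p = 9.6e-08). HK1 (ENSG00000156515; chromosome 10, 69269984 to 69401884), the constitutive form, had 377, 395 and 396 CPM in control, 296, 272 and 233 in KO and 351, 336 and 302 in OE libraries. It fell in KO cells (-0.54 ± 0.09, adjusted p = 1.56e-05; corrected -0.36, adjusted p = 0.000288). In OE cells its value of -0.24 ± 0.09 did not pass (adjusted p = 0.0546; between 0.0109 and 0.0454 in 9 of the alternatives, the correction among them with 0.0187), with the OE libraries all below the controls.

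Phosphofructokinase commits the sugar to glycolysis, and by the fitted values all 3 of its isozymes fell in KO cells, of which PFKM alone was still lower and PFKL higher after correction. PFKP (ENSG00000067057; chromosome 10, 3066333 to 3137718), the platelet form and by length the most abundant here (62.4 ± 4.40 CPM per kilobase in control cells), had 319, 352 and 367 CPM in control, 282, 259.6 and 254 in KO and 456, 483 and 464 in OE libraries. The 3 groups did not overlap. It rose in OE cells (0.43 ± 0.08, adjusted p = 0.000267) and fell in KO cells (-0.38 ± 0.08, adjusted p = 0.00024), though the corrected KO value did not pass (-0.15, adjusted p = 0.0767). PFKM (ENSG00000152556; chromosome 12, 48105139 to 48146404), the muscle form, was lower in both: 115 ± 10.9 CPM in control, 82.0 ± 9.36 in KO and 89.6 ± 7.40 in OE cells (SD, n = 3). Its log2 fold changes were -0.48 ± 0.10 in KO (adjusted p = 0.000307; corrected -0.25, adjusted p = 0.0241) and -0.36 ± 0.10 in OE (adjusted p = 0.0119; 0.098 without control replicate 2 and 0.0615 without OE replicate 2). PFKL (ENSG00000141959; chromosome 21, 44300051 to 44327376), the liver form, had 230.2 ± 17.9, 184 ± 6.08 and 268 ± 8.55 CPM in control, KO and OE cells. Its KO value changed sign with the trend removed, from -0.33 ± 0.08 (adjusted p = 0.0013) to 0.31 (adjusted p = 0.000623), so its direction in KO cells depends on the scaling. Its OE value of 0.22 ± 0.08 did not pass (adjusted p = 0.0503; between 0.00907 and 0.0495 in 7 of the alternatives, the correction among them with 0.00932). GPI (ENSG00000105220; chromosome 19, 34359480 to 34402413), the isomerase between hexokinase and phosphofructokinase, behaved likewise, from -0.27 ± 0.07 (adjusted p = 0.00445) to 0.25 (adjusted p = 0.0103). GPI and PFKL have exon lengths of 10680 and 8926 bases, the longest of the 9 upper enzymes.

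The last steps of upper glycolysis are the aldolases, which split fructose 1,6-bisphosphate, and triosephosphate isomerase. TPI1 (ENSG00000111669; chromosome 12, 6867119 to 6870948) had 677, 649 and 649.5 CPM in control libraries and 812, 784 and 871 in KO libraries, all above the controls. Its rise was 0.32 ± 0.08 (adjusted p = 0.00139), or 0.18 after correction (adjusted p = 0.035). It had 689.7, 693 and 791 CPM in OE libraries, where the value of 0.14 ± 0.08 did not pass (adjusted p = 0.244). ALDOC (ENSG00000109107; chromosome 17, 28573115 to 28576948), the brain aldolase, had 15.6 ± 2.78 CPM in control, 20.4 ± 1.67 in KO and 19.5 ± 2.07 in OE cells. The KO call (0.40 ± 0.16, adjusted p = 0.0414) was lost after correction (0.23, adjusted p = 0.238) and in 4 of the 9 fits that left out a library. ALDOA (ENSG00000149925; chromosome 16, 30064164 to 30070457), the muscle aldolase and the usual form of most tissues, was counted at only 10.8 to 19.5 CPM in control libraries. In the annotation used for counting, 93.8% of its coding bases also belong to other genes, and featureCounts leaves out reads that fall in more than 1 gene unless told otherwise, so this level says nothing of how abundant ALDOA is. By the fitted values ALDOA passed in no comparison (KO 0.28 ± 0.22, adjusted p = 0.297, corrected 0.39; OE -0.11 ± 0.21, adjusted p = 0.788; KO against OE 0.38 ± 0.22, adjusted p = 0.132). KO against OE passed after correction (0.53, adjusted p = 0.0371) and without KO replicate 2 (0.59, adjusted p = 0.0251), and KO against control passed without control replicate 1 (0.57, adjusted p = 0.0404).

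Fructose 2,6-bisphosphate is the strongest activator of phosphofructokinase. The 2 members among the bifunctional enzymes that make and remove it moved apart in KO cells, and PFKFB1 and PFKFB2 are not members. PFKFB4 (ENSG00000114268; chromosome 3, 48517684 to 48562015) had 14.2, 18.4 and 12.1 CPM in control, 6.15, 7.06 and 6.09 in KO and 9.63, 13.2 and 10.7 in OE libraries. The KO libraries lay below all others, at 2.32-fold under the control mean (-1.21 ± 0.21, adjusted p = 4.27e-05; corrected -0.97). The OE value did not pass (-0.42 ± 0.19, adjusted p = 0.144). PFKFB3 (ENSG00000170525; chromosome 10, 6144934 to 6254644), the form with the highest kinase activity, had 67.0, 68.9 and 73.1 CPM in control, 90.5, 83.7 and 77.4 in KO and 58.3, 61.0 and 50.9 in OE libraries, so that KO libraries were above and OE libraries below the controls without overlap. The changes were small: 0.27 ± 0.10 in KO (adjusted p = 0.0234; corrected 0.56) and -0.30 ± 0.10 in OE (adjusted p = 0.034). Leaving out 1 library ended the KO call in 4 of 9 fits (adjusted p up to 0.117) and the OE call in 5 of 9 (up to 0.151). KO against OE, 0.57 ± 0.10, was firmer (adjusted p = 2.81e-05).

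Of the 6 enzymes of lower glycolysis 3 rose in KO cells (5 after correction) and 1 in OE cells, and 0 fell in either. GAPDH (ENSG00000111640; chromosome 12, 6534512 to 6538374), which makes 1,3-bisphosphoglycerate and NADH, had 2920, 2467 and 2511 CPM in control, 4292, 4055 and 4998 in KO and 2546, 2576 and 2743 in OE libraries. The KO libraries stood above all others, and the OE libraries lay within the control range. KO cells were 1.69-fold higher (0.76 ± 0.09, adjusted p = 1.48e-07; corrected 0.59, adjusted p = 4.52e-07), whereas the OE value was -0.01 ± 0.09 (adjusted p = 0.976). In this annotation 21.5% of GAPDH coding bases are shared with other genes, and reads assigned to 65 GAPDH pseudogenes came to 0.486% of the summed counts.

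PGK1 (ENSG00000102144; chromosome X, 77910739 to 78129295), the first ATP-making enzyme of the pathway, also had its highest levels in the 3 KO libraries, with 524, 462 and 468 CPM in control, 708, 766 and 865 in KO and 459, 480.0 and 601 in OE libraries. Its KO rise was 1.61-fold (0.69 ± 0.10, adjusted p = 2.83e-06; corrected 0.55). PGAM1 (ENSG00000171314; chromosome 10, 97426191 to 97433444), the phosphoglycerate mutase, had 538, 524 and 559 CPM in control and 678, 728 and 842 in KO libraries, without overlap (0.47 ± 0.08, adjusted p = 6.06e-05; corrected 0.25, adjusted p = 0.00813). It had 541, 584 and 627 CPM in OE libraries, which overlapped the controls, and its OE value was 0.11 ± 0.08 (adjusted p = 0.406). GAPDH, PGK1 and PGAM1 were all higher in KO than in OE cells, by 0.76 ± 0.09, 0.60 ± 0.10 and 0.36 ± 0.08 (adjusted p = 8.69e-08, 1.16e-05 and 0.000887), although for PGAM1 the corrected value was 0.18 (adjusted p = 0.05), which missed the threshold.

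PKM (ENSG00000067225; chromosome 15, 72199029 to 72231822), pyruvate kinase, had 3873, 3797 and 3851 CPM in control, 4271, 4333 and 4300 in KO and 3629, 3571 and 3950 in OE libraries. All KO libraries were above all controls, yet the fitted value of 0.16 ± 0.07 did not pass (adjusted p = 0.0601), while the corrected one did (0.57, adjusted p = 3.83e-07). Counts per gene cannot separate the PKM1 and PKM2 splice forms. ENO1 (ENSG00000074800; chromosome 1, 8861000 to 8879190), the general enolase, had 2042, 2136 and 2182 CPM in control and 2284, 2421 and 2820 in OE libraries, a rise of 0.24 ± 0.08 (adjusted p = 0.0398) that was lost without any 1 of the 3 control libraries or OE replicate 3 (adjusted p between 0.081 and 0.141). In KO cells ENO1 was at 0.11 ± 0.08 (adjusted p = 0.263; corrected 0.24, adjusted p = 0.0118). ENO2 (ENSG00000111674; chromosome 12, 6913745 to 6923698), the neuronal enolase, was near the limit of detection with 0.437, 0.421 and 0.899 CPM in control, 0.241, 0.449 and 1.01 in KO and 1.66, 1.92 and 1.24 in OE libraries. The OE libraries were the highest, but OE against control did not pass (1.43 ± 0.59, adjusted p = 0.0989), nor did KO against control (-0.13 ± 0.71, adjusted p = 0.896; corrected -0.05). KO was lower than OE (-1.56 ± 0.62, adjusted p = 0.0367), a call that was lost after correction (-1.45, adjusted p = 0.0551).

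Among the genes of lactate and pyruvate fate, both lactate carriers rose in KO cells. SLC16A1 (ENSG00000155380; chromosome 1, 112911847 to 112957013), the carrier MCT1, had 206, 204 and 201 CPM in control, 319.9, 279 and 284 in KO and 226, 222 and 230.0 in OE libraries, with KO above OE and OE above control. Its KO rise was 0.53 ± 0.08 (adjusted p = 3.52e-06; corrected 0.40), and the OE value of 0.15 ± 0.08 did not pass (adjusted p = 0.189). SLC16A3 (ENSG00000141526; chromosome 17, 82228397 to 82261129), the exporter MCT4 of glycolytic cells, had 92.9, 95.0 and 87.0 CPM in control, 129, 123 and 113 in KO and 86.2, 91.0 and 78.0 in OE libraries. It rose by 0.41 ± 0.09 in KO cells (adjusted p = 0.000469), and the corrected value was larger (1.10). BSG, the chaperone that brings both carriers to the membrane and no member of the set, rose as well in KO cells (1267 ± 41.9 against 876 ± 5.09 CPM; 0.53 ± 0.07, adjusted p = 1.58e-06; corrected 0.70).

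Lactate dehydrogenase A, the form that favours lactate, went up in OE cells. LDHA (ENSG00000134333; chromosome 11, 18394560 to 18408425) had 1491, 1438 and 1513 CPM in control, 1304, 1268 and 1785 in KO and 1785, 1914 and 2164 in OE libraries. All OE libraries were above the controls, while 2 KO libraries lay below them and KO replicate 3 above. The OE rise was 1.32-fold (0.40 ± 0.10, adjusted p = 0.00724), the KO value was -0.03 ± 0.10 (adjusted p = 0.838; corrected -0.09), and KO was lower than OE (-0.43 ± 0.10, adjusted p = 0.00105). LDHB (ENSG00000111716; chromosome 12, 21635342 to 21757857), the form of oxidative tissues, rose in KO cells from 26.4 ± 4.23 to 42.4 ± 2.10 CPM (0.68 ± 0.13, adjusted p = 0.000187; corrected 0.30, adjusted p = 0.047). Of its coding bases 93.5% are shared with another annotated gene, so its level is, like that of ALDOA, no measure of abundance. PDK1 (ENSG00000152256; chromosome 2, 172555373 to 172608669), the kinase that shuts pyruvate out of the mitochondrial oxidation, had 10.6, 10.4 and 12.2 CPM in control, 18.8, 17.6 and 28.1 in KO and 13.8, 16.1 and 13.1 in OE libraries. It was 1.94-fold higher in KO cells (0.94 ± 0.18, adjusted p = 0.000169; corrected 1.25). In OE cells 0.37 ± 0.18 did not pass (adjusted p = 0.178).

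The messages of the HIF alpha subunits themselves did not pass in any of the 3 fitted comparisons. HIF1A (ENSG00000100644; chromosome 14, 61695513 to 61748259) had 221, 208 and 206 CPM in control, 226, 208 and 209.5 in KO and 227, 255 and 221 in OE libraries. EPAS1 (ENSG00000116016; chromosome 2, 46293667 to 46386697), which encodes HIF-2 alpha, had 233, 225 and 236 CPM in control, 247, 234 and 203 in KO and 227, 216 and 195 in OE libraries. The groups overlapped for both genes in all 3 comparisons. Fitted KO values were 0.02 ± 0.08 for HIF1A (adjusted p = 0.847) and -0.02 ± 0.08 for EPAS1 (adjusted p = 0.875). The corrected values passed in opposite directions, -0.21 for HIF1A (adjusted p = 0.0205) and 0.26 for EPAS1 (adjusted p = 0.00539), so a direction in KO cells depends on the scaling for both. OE values were 0.15 ± 0.08 and -0.12 ± 0.08 (adjusted p = 0.212 and 0.345). KO against OE was -0.13 ± 0.08 for HIF1A (adjusted p = 0.174) and 0.11 ± 0.08 for EPAS1 (adjusted p = 0.29), and here too the corrected values passed, -0.32 (adjusted p = 0.000597) and 0.38 (adjusted p = 9.25e-05).

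Among members that passed, HIF targets outside glycolysis held the largest rises in both KO and OE cells. CA9 (ENSG00000107159; chromosome 9, 35673918 to 35681159), the cell-surface carbonic anhydrase used as a marker of hypoxia, had 3.38, 2.74 and 2.36 CPM in control, 9.76, 7.06 and 29.8 in KO and 4.32, 2.52 and 5.18 in OE libraries. All KO libraries exceeded all others, but KO replicate 3 alone was several times the other KO libraries. The mean was 5.49-fold higher (2.41 ± 0.41, adjusted p = 3.05e-05; corrected 2.14). Without KO replicate 3 the log2 fold change of CA9 was 1.57 (adjusted p = 0.000529). Another annotated gene shares 39.1% of CA9 coding bases. CA12 (ENSG00000074410; chromosome 15, 63321378 to 63381846), the second membrane carbonic anhydrase here, had 20.8, 24.0 and 22.5 CPM in control, 28.7, 23.9 and 34.0 in KO and 29.8, 44.9 and 39.7 in OE libraries. It rose in OE cells (0.77 ± 0.15, adjusted p = 0.00067), and its KO value did not pass as fitted but did after correction (0.35 ± 0.16, adjusted p = 0.0624; corrected 0.54, adjusted p = 0.00518).

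ADM (ENSG00000148926; chromosome 11, 10305073 to 10307397), which encodes the vasodilator peptide adrenomedullin, moved in opposite directions in KO and OE cells, and of the 4 members that did so it differed most between them. It had 37.1, 37.7 and 42.7 CPM in control, 101.3, 97.8 and 86.9 in KO and 28.1, 26.1 and 26.5 in OE libraries, with no overlap among the 3 groups. KO cells were 2.43-fold higher (1.29 ± 0.10, adjusted p = 6.18e-10; corrected 1.14) and OE cells 1.46-fold lower (-0.54 ± 0.11, adjusted p = 0.000746). KO against OE was 1.83 ± 0.10 (adjusted p = 1.44e-12). NDRG1 (ENSG00000104419; chromosome 8, 133237175 to 133302022), a stress-responsive gene first known from differentiating cells, rose in both lines, with 50.7, 53.0 and 60.1 CPM in control, 95.0, 86.1 and 148 in KO and 112, 125 and 120.3 in OE libraries. Its log2 fold change was 1.00 ± 0.14 in KO (adjusted p = 2.39e-06; corrected 1.55; 0.73 without KO replicate 3) and 1.12 ± 0.14 in OE (adjusted p = 2.57e-06). VEGFA (ENSG00000112715; chromosome 6, 43770184 to 43786487), the vessel growth factor, was likewise higher in both, with 28.3, 27.6 and 30.8 CPM in control, 36.3, 34.3 and 42.8 in KO and 37.2, 52.5 and 46.8 in OE libraries. The values were 0.66 ± 0.13 in OE (adjusted p = 0.000693) and 0.38 ± 0.13 in KO (adjusted p = 0.0192; corrected 1.01). Leaving out control replicate 1 (adjusted p = 0.0551), control replicate 2 (0.0703) or KO replicate 3 (0.0971) ended the KO call of VEGFA.

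The mitophagy receptors BNIP3 and BNIP3L rose in KO cells. BNIP3L (ENSG00000104765; chromosome 8, 26383054 to 26505636), which also clears mitochondria from maturing red blood cells, had 56.9, 51.8 and 58.2 CPM in control, 101.2, 111 and 133 in KO and 56.0, 58.9 and 52.5 in OE libraries. The KO libraries were all above the rest, and KO cells were 2.07-fold higher (1.04 ± 0.10, adjusted p = 1.53e-08; corrected 0.77), while OE against control was 0.00 ± 0.10 (adjusted p = 0.992). BNIP3 (ENSG00000176171; chromosome 10, 131966455 to 131982013) had 22.4, 21.7 and 21.5 CPM in control, 37.8, 28.4 and 45.2 in KO and 24.7, 18.2 and 30.2 in OE libraries (0.75 ± 0.17 in KO, adjusted p = 0.00067; corrected 0.81), with 2.93% of the reads of BNIP3 and its pseudogenes assigned to the pseudogenes.

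ANGPTL4 (ENSG00000167772; chromosome 19, 8363289 to 8374370), an inhibitor of lipoprotein lipase, rose 2.51-fold in OE cells, with 23.0, 26.0 and 29.5 CPM against 10.9, 10.7 and 9.66 in control libraries (1.33 ± 0.21, adjusted p = 5.72e-05). The KO libraries, at 7.59, 10.3 and 17.9 CPM, fell on both sides of the controls (0.16 ± 0.22, adjusted p = 0.585; corrected 0.17; -0.22 without KO replicate 3). BHLHE40 (ENSG00000134107; chromosome 3, 4979437 to 4985323), a transcriptional repressor of the circadian clock that hypoxia induces, was the only tested member among the HIF targets outside glycolysis that fell in KO cells. It had 218, 211 and 216 CPM in control, 159, 137 and 153 in KO and 248, 208 and 211 in OE libraries (-0.52 ± 0.09 in KO, adjusted p = 1.79e-05; corrected -0.60). KDM3A (ENSG00000115548; chromosome 2, 86440647 to 86492716), a histone demethylase, had 33.1 ± 1.88, 28.3 ± 2.27 and 30.7 ± 1.73 CPM in control, KO and OE cells and passed in no comparison by the fitted or the corrected values. EGLN3 (ENSG00000129521; chromosome 14, 33924227 to 34462774), a HIF prolyl hydroxylase, and ANKRD37 (ENSG00000186352; chromosome 4, 185396021 to 185400628), an ankyrin repeat protein, were too low to test. EGLN3 had 0, 6 and 0 counts in control, 6, 2 and 18 in KO and 4, 2 and 10 in OE libraries, and ANKRD37 had 6, 2 and 2 in control, 7, 2 and 6 in KO and 2, 3 and 18 in OE libraries. For both genes the libraries of the groups overlapped, and 40.3% of ANKRD37 exon bases are shared with another gene.

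**Figure D3:**
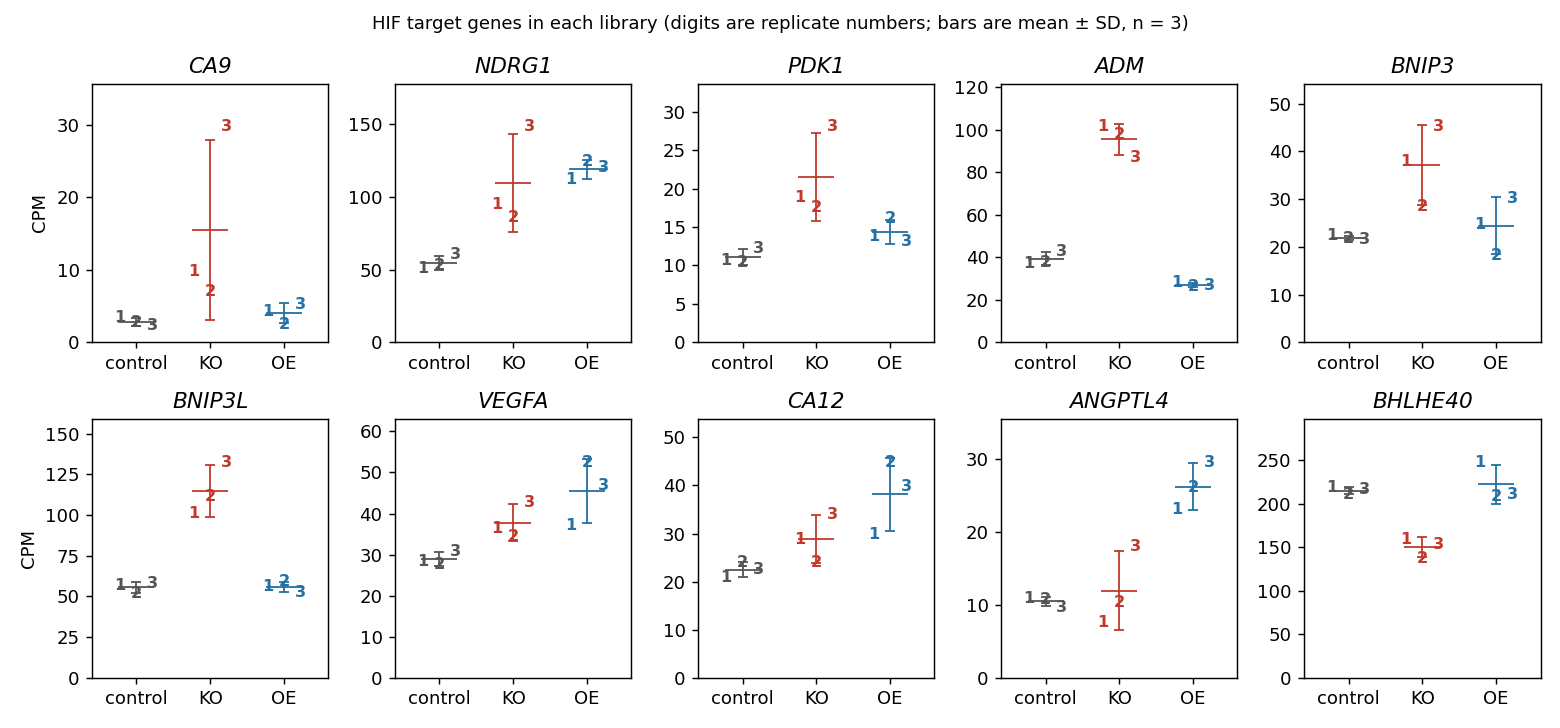
CPM of 10 HIF-responsive genes in each library by group, with digits giving the replicate number and bars the mean ± SD (n = 3), each panel starting at 0 with its own scale. KO replicate 3 is the highest KO library for CA9, NDRG1, PDK1, BNIP3, BNIP3L, VEGFA, CA12 and ANGPTL4 and the lowest for ADM.

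KO replicate 3, the KO library with the fewest counts (6317564), was the highest of the 3 KO libraries for 20 of the 37 tested members, where 36.4% of all tested genes were highest in it. For LDHA it had 1785 CPM against 1304 and 1268 in the other KO libraries, and for PDK1 28.1 against 18.8 and 17.6. Without this library 25 of the 26 KO calls on members were still made in the same direction, the exception being VEGFA, and no other member gained a call. On all 9 libraries the correction kept 22 of the 26 in the same direction, turned GPI and PFKL and lost ALDOC and PFKP. With the correction and without KO replicate 3, 18 were made in the same direction, PFKL in the opposite one, and ALDOC, GPI, LDHB, PFKM, PFKP, PGAM1 and TPI1 did not pass, while CA12, EPAS1, LDHA, PKM and SLC2A1 passed in addition. In KO against OE its removal ended the PDK1 call (0.34, adjusted p = 0.108) and the TPI1 call (0.14, adjusted p = 0.177), and it brought a lower value past the threshold for NDRG1 (-0.40, adjusted p = 0.00219) and VEGFA (-0.37, adjusted p = 0.0283).

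Ratios of related isozymes within a library do not depend on library size, and they were taken per exon length with 0.5 counts added. With 3 libraries against 3 the smallest p of an exact two-sided permutation test is 0.10, so none of these 36 comparisons could pass 0.05. LDHA to LDHB was 27.9 in control, 16.7 in KO and 40.2 in OE cells (geometric means), with no overlap among the 3 groups, and it carries the overlap of LDHB with another gene. HK2 to HK1 was 0.134 in control, 0.113 in KO and 0.211 in OE cells. The OE libraries were above all others (exact permutation p = 0.10), and KO and control libraries overlapped (exact permutation p = 0.50). PFKP to PFKM was 3.94 in control, 4.23 in KO and 6.81 in OE cells, with the OE libraries again above all others. PFKFB3 to PFKFB4 was 4.72 in control, 12.9 in KO and 5.08 in OE cells, and here the KO libraries stood apart. SLC2A1 to SLC2A3 was 186.5, 723 and 104.5 in the same order, a ratio that rests on few SLC2A3 reads. CA12 to CA9 was 1.81 in control and 2.23 in OE cells and 0.515 in KO cells, where CA9 exceeded CA12 by length in all 3 libraries. SLC16A1 to SLC16A3 (3.87, 4.22 and 4.64) and HIF1A to EPAS1 (1.29, 1.33 and 1.56) differed less, though for both the OE libraries were above all controls (exact permutation p = 0.10). For SLC2A1 to SLC2A3 and CA12 to CA9 the OE and control libraries overlapped.

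**Figure D4:**
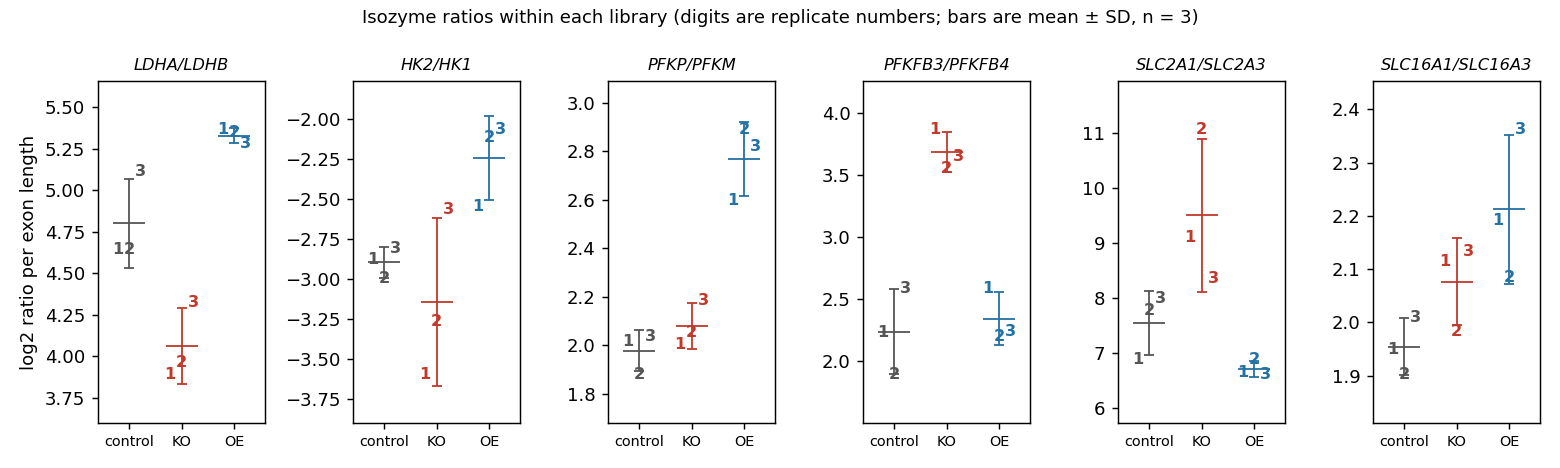
Log2 ratio of 6 isozyme or carrier pairs, each per exon length, in every library, with digits giving the replicate number and bars the mean ± SD (n = 3); each panel has its own axis, which does not start at 0. LDHA/LDHB separates all 3 groups, HK2/HK1 and PFKP/PFKM are highest in OE libraries, and PFKFB3/PFKFB4 is highest in KO libraries.

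Setting KO directly against OE cells tested which member differences between the lines were larger than the spread. Higher in KO were CA9, ADM, BNIP3L, LDHB, GAPDH, PGK1, BNIP3, PFKFB3, PDK1, SLC16A3, SLC16A1, PGAM1, PKM and TPI1, from 1.89 for CA9 to 0.18 for TPI1. Lower in KO were SLC2A3, SLC2A6, ENO2, HK2, ANGPTL4, PFKP, PFKFB4, BHLHE40, PFKL, LDHA, CA12, GPI and HK1, from -2.77 for SLC2A3 to -0.30 for HK1. Of the 5 members that passed in OE against control and not in KO against control, LDHA, ANGPTL4 (-1.17 ± 0.21, adjusted p = 4.56e-05) and CA12 (-0.42 ± 0.15, adjusted p = 0.0205) differed between KO and OE cells, and SLC2A1 (-0.15 ± 0.07, adjusted p = 0.0764) and ENO1 (-0.13 ± 0.08, adjusted p = 0.174) did not pass. The weakest calls were those of TPI1 (adjusted p = 0.0485, lost in 8 of 9 fits that left out a library), ENO2 (adjusted p = 0.0367, lost in 4), CA12 (lost in 2) and PKM (adjusted p = 0.0151, lost without OE replicate 2). Correction for length and GC content also ended the calls of GPI, PFKL and HK1 (0.08, 0.06 and -0.12), CA12 (-0.23), ENO2 (-1.45), PGAM1 (0.18) and TPI1 (0.08). It brought ALDOA (0.53), EPAS1 (0.38) and NDRG1 (0.38, adjusted p = 0.0193; -0.13 ± 0.13 without correction, adjusted p = 0.429) past the threshold as higher and HIF1A (-0.32) as lower.

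The wider pathway was followed through 6 lists of 113 genes that are not members, chosen with earlier results of these data known. Of the 13 tested oxygen sensing genes and HIF partners, 5 rose and 5 fell in KO cells (76.9%, where 51.9% of all genes passed), and after correction 4 rose and 4 fell (61.5%, beside 46.0%). ELOB, a subunit of the VHL ubiquitin ligase, rose from 143 ± 11.0 to 338 ± 25.1 CPM (1.24 ± 0.10, adjusted p = 4.08e-10; corrected 0.93). The coactivators of HIF, CREBBP and EP300, fell (-1.04 ± 0.12 and -0.95 ± 0.11, adjusted p = 1.11e-07 and 1.05e-07; corrected -0.44 and -0.56), and CITED2, which competes with HIF for them, rose (0.80 ± 0.12, adjusted p = 8.13e-06; corrected 0.53). CITED2 fell in OE cells (-0.76 ± 0.13, adjusted p = 0.000165). ARNT, the partner of both alpha subunits, was lower in KO (-0.39 ± 0.12, adjusted p = 0.00715; corrected -0.31) and in OE cells (-0.41 ± 0.11, adjusted p = 0.0137). In OE cells 0 genes of this list rose and 2 of the 13 fell (15.4%, where 18.6% of all genes passed).

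Of 25 other tested HIF targets, 5 rose, 6 fell and 14 did not pass in KO cells (44.0%, beside 51.9% of all genes), and after correction 9 rose and 3 fell (48.0%, beside 46.0%), so the balance of directions depends on the scaling. The counts were 6 higher, 2 lower and 17 not passed in OE cells (32.0%, beside 18.6% of all genes). Values in KO cells ran from -1.14 to 1.15 as fitted and from -1.30 to 0.75 after correction. The genes named next were picked by smallest p, so they do not show the balance of the list. P4HA1 (1.15 ± 0.10, adjusted p = 1.8e-09; corrected 0.75), a collagen prolyl hydroxylase, and FAM162A (0.91 ± 0.14, adjusted p = 7.23e-06; corrected 0.58) rose in KO cells. STC2, stanniocalcin 2, rose in OE cells from 12.8 ± 1.01 to 70.5 ± 17.6 CPM (2.46 ± 0.16, adjusted p = 1.79e-10), and ERO1A, an oxidase of the endoplasmic reticulum, rose by 0.62 ± 0.10 (adjusted p = 5.67e-05). PLOD2, a collagen lysyl hydroxylase, rose in both KO (0.71 ± 0.11, adjusted p = 8.25e-06; corrected 0.61) and OE cells (0.61 ± 0.11, adjusted p = 0.000219). The median log2 fold change of this list in KO cells was -0.0016 (0.10 after correction), against 0.57 (0.79 after correction) for the 10 tested HIF targets among the members.

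In the list of other isozymes and carriers 18 of 31 genes could be tested, with 4 higher and 5 lower in KO cells (50.0%, near the 51.9% of all genes). After correction 5 were higher and 5 lower (55.6%, beside 46.0%). In OE cells 3 were higher and 5 lower (44.4%, beside 18.6% of all genes). BPGM, the bisphosphoglycerate mutase, was higher in KO (1.12 ± 0.11, adjusted p = 2.05e-08; corrected 0.72) and lower in OE cells (-0.62 ± 0.12, adjusted p = 0.000588), and GPD2, the mitochondrial glycerol 3-phosphate dehydrogenase, was lower in KO (-0.72 ± 0.10, adjusted p = 2e-06; corrected -0.75) and higher in OE cells (0.47 ± 0.09, adjusted p = 0.000945). PCK2, the mitochondrial phosphoenolpyruvate carboxykinase, rose in OE cells from 43.7 ± 3.21 to 141 ± 15.9 CPM (1.69 ± 0.10, adjusted p = 3.45e-11). For pyruvate entry into mitochondria, 5 of 13 tested genes rose and 4 fell in KO cells (69.2%, beside 51.9% of all genes). After correction 3 rose and 4 fell (53.8%, beside 46.0%). In OE cells 0 rose and 2 fell (15.4%, beside 18.6% of all genes). Those higher in KO included MPC2, a subunit of the mitochondrial pyruvate carrier (1.28 ± 0.14, adjusted p = 1.02e-07; corrected 0.93), and PDHB, a subunit of pyruvate dehydrogenase (0.90 ± 0.11, adjusted p = 4.54e-07; corrected 0.72), while the dehydrogenase phosphatase PDP2 fell (-0.89 ± 0.14, adjusted p = 8.64e-06; corrected -0.71).

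Of the 18 genes of the pentose phosphate, glycogen and hexosamine branches, 7 rose and 2 fell in KO cells, or 50.0% where 51.9% of all genes passed (7 and 3 after correction, or 55.6% beside 46.0%). PGM1 and UGP2, which lead from glucose 6-phosphate to UDP-glucose, rose by 0.67 ± 0.10 and 0.68 ± 0.08 (adjusted p = 4.4e-06 and 8.89e-08; corrected 0.58 and 0.61). In OE cells 3 rose and 2 fell (27.8%, beside 18.6% of all genes), among them UAP1 of the hexosamine branch, which rose by 0.76 ± 0.11 (adjusted p = 3.24e-05), and the transketolase TKT, which fell (-0.43 ± 0.08, adjusted p = 0.00036). Of 5 tested genes of the glucose sensor MondoA, 3 rose and 1 fell in KO cells (80%, beside 51.9% of all genes). After correction 2 rose and 1 fell (60%, beside 46.0%). The gene that fell by the fitted values was MLXIP, which encodes MondoA itself (-1.04 ± 0.09, adjusted p = 1.78e-09, corrected -0.40). ARRDC4, a MondoA target that curbs glucose uptake, rose in KO (0.53 ± 0.09, adjusted p = 2.32e-05; corrected 0.25) and fell in OE cells (-0.84 ± 0.09, adjusted p = 4.7e-07).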

How the data were processed

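Per the labels' protocols, poly-A selected RNA was sequenced as paired reads of 150 bases. The deposited files hold whole-number counts per gene. The authors obtained these counts with featureCounts, version 1.5.2, on Ensembl release 101 and GRCh38 per the file headers. The submitters' processing notes name HISAT2 1.03, featureCounts 0.1.0, FastQC and DESeq2. The headers set no option for pairs, strand or overlapping genes, so mates may be counted separately, antisense partners cannot be told apart, and reads over more than 1 gene are left out. Columns of other series numbered 0.

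Members and lists were chosen with earlier results of these data known. Genes with a minimum count of 10 by filterByExpr (13390) were fitted with edgeR 4.0.16 in R 4.3.3, with TMM scaling, all 9 libraries and the group as the only term (common biological coefficient of variation 10.2%). The quasi-likelihood test was two-sided with Benjamini-Hochberg adjustment over these genes. The corrected values add, as an offset for each library, the smooth trend (loess, span 0.3) of its log2 CPM over exon length and GC content, which came from the count files and GENCODE release 29. Values after ± are the SD of 3 libraries or the SE of a log2 fold change. Alternatives were DESeq2 1.42.0 (Wald test and size factors), limma 3.58.1 (voom), no filter, adjusted p under 0.01, only the 2 groups compared, the replicate number as a block, and leaving out each library. Leaving out a library together with the correction was added after seeing the data. No replicates agreed within sampling noise (chi-square per degree of freedom 2.74 to 11.7). On data simulated from these libraries for KO against control, 13139 genes were run, with 107 changed by 0.5 and 89 by 1 (log2). Of the former 39.3% and of the latter 74.2% were recovered. Far fewer genes changed there than passed in the real comparison (51.9%), so these rates do not measure what was missed here. Named genes were the members, SGPL1 and, of each of the 6 pathway lists, up to 3 genes by smallest p in KO and up to 2 in OE against control. Of these, GPD1L, PDK2, DLD, RPE and MLX are not described above.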

Additional observations from a re-analysis of the deposited data

How the results depend on the processing

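Counts of members that passed kept within 1.5 times of those reported under limma-voom, under DESeq2 (its Wald test or its scaling), with no filter on low counts, fits of only the groups compared and the replicate block, and also under removal of the length and GC trend. At an adjusted p under 0.01, lower members in OE against control fell from 4 to 1. Leaving out a library in turn, with or without the correction, gave 14 to 22 higher and 5 to 10 lower members in KO against control, 7 to 11 higher and 1 to 5 lower in OE against control, and 12 to 17 higher and 8 to 15 lower in KO against OE. With the correction and a library left out, lower members numbered 6 without control replicate 2 and 5 without KO replicate 2 in KO against control, 2 without control replicate 2 and 2 without control replicate 3 in OE against control, and 8 without OE replicate 2 in KO against OE. The count of members with a promoter match fell from 29 to 8 with TACGTG alone.

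Removal of the length and GC trend reversed some values, given here first without and then with the replicate block. For GPI these were 0.25 and 0.25 in KO against control and 0.0808 and 0.0847 in KO against OE, and for PFKL 0.31 and 0.31, and 0.0625 and 0.064. In KO against control HIF1A was -0.21 and -0.22, EPAS1 0.26 and 0.25, and TKT, which was -0.01 without correction, 0.47 and 0.48. In KO against OE NDRG1 was 0.38 and 0.36, and VEGFA 0.30 and 0.31, of which only the second passed (adjusted p = 0.0554 and 0.0325). The cause was not tested. Same-numbered libraries did not deviate together (correlations from -0.0772 to 0.066, beside -0.0859 to 0.1086 for libraries with different numbers). No pairing by number was seen, though 3 libraries a group cannot exclude it. The block alone moved the count of member calls from 13 to 15 in OE against control, where HK1 and SLC2A3 were added, and left 26 in KO against control and 27 in KO against OE. At this depth the members EGLN3 and ANKRD37 could not be tested, EGLN3 passing in KO against control only in the fit with no filter, and SLC2A3 and ENO2 rested on few reads. Changes near 0.5 on the log2 scale were often missed in simulated data. Far fewer genes changed in those data than passed here, so that rate does not carry over.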
